A study of Mus musculus with 18 samples.

Results

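The small RNAs of the liver were read with PANDORA-seq and with traditional-seq in the same low cholesterol diet (LCD)-fed mice. The comparison was set by the labels of the libraries and takes in 10 of the 18 libraries of the series, 5 PANDORA-seq and 5 traditional-seq libraries from LCD mice 1 to 5. A library of each method with the same number came from the same mouse, because part of each RNA sample was kept for the other method. The mice were male C57BL/6 animals of 8 weeks at the start, and the labels name no genetic change. The labels hold times of 4, 8 and 9 weeks, and the methods of the study state 4 weeks on the diet. Why the labels differ is not explained. RNA of 15 to 50 nt was cut from a gel in both arms. In PANDORA-seq the RNA was then treated with T4 polynucleotide kinase, which leaves the 5′ phosphate and 3′ hydroxyl that adapters need, and next with AlkB, a demethylase that removes methyl groups from the base-pairing face of A, C and G. Traditional-seq had neither treatment, and the labels name the same library kit for both methods. All 1234 listed RNAs were read: 1150 miRNA entries, 51 cytosolic and 22 mitochondrial tsRNA families, 8 rRNA entries, 2 Y RNAs and 1 pooled piRNA entry. Of these, 1084 had a value above 0 in any of the 10 libraries, and 325 reached 1 RPM (reads of an RNA scaled to a fixed total of library reads) in at least 5 libraries and were tested.

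miRNAs are cut by Drosha and Dicer and leave both enzymes with ends that adapters join, and few of them carry a methylated base. tsRNAs are fragments of tRNAs, named here by amino acid and anticodon, and rsRNAs are fragments of rRNAs. Both parents are rich in methylated bases that stop reverse transcriptase, and cleavage by angiogenin and related ribonucleases leaves ends that ligases refuse. In the liver miR-122 is the leading miRNA of hepatocytes, and tsRNAs of the Glu, Gly and His families are known as abundant fragments.

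Sequences are shown in lower case. tsRNA-Glu-CTC was the leading tsRNA in PANDORA-seq, and 2 of its fragments, of 37 and 15 nt, are shown. They are taken from the list of fragment sequences that came with the study, in the order of that list. The longer comes from the 3′ part of the tRNA and holds the T arm. The shorter runs from the D arm to the anticodon loop, so neither begins at the 5′ end of the tRNA. In the study the abundant species of this tsRNA came mostly from that 5′ end, so the 2 shown do not stand for them. RefSeq (GRCm38.p6) holds 12 genes of this tRNA on 8 chromosomes. The deposited table sums all fragments of a family, so neither sequence has a value of its own and no result rests on them.

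Glu-CTC fragment of 37 nt: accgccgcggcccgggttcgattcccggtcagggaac
Glu-CTC fragment of 15 nt: aggattcggcgctct

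For miRNAs the seed (bases 2 to 8) is in capitals. The first 3 are let-7 members with a shared seed that changed to different degrees, the next 3 are miRNAs with a large decrease in PANDORA-seq, and the last 5 are entries that were higher in PANDORA-seq.

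let-7a-5p: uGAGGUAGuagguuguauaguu
let-7b-5p: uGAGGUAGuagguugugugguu
let-7g-5p: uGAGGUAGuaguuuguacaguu
miR-126a-3p: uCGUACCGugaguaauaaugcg
miR-26b-5p: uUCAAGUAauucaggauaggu
miR-21a-5p: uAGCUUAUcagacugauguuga
miR-690: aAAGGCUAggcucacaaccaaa
miR-3470b: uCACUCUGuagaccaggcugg
miR-692: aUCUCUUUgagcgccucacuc
miR-682: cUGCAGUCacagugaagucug
miR-3084-5p: gUUGAAGGuuaauuagcagagu

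These mature sequences are from RefSeq (GRCm38.p6). let-7g-5p lies at chr9:106178846-106178867, let-7b-5p at chr15:85707325-85707346, miR-126a-3p at chr2:26591402-26591423 and miR-26b-5p at chr1:74394324-74394344, all on the plus strand. miR-21a-5p lies at chr11:86584120-86584141 and miR-690 at chr16:28599940-28599961, both on the minus strand. miR-3470b lies at chr16:44013885-44013905 and miR-682 at chr13:75645119-75645139, both on the plus strand. let-7a-5p, miR-692 and miR-3084-5p come from several copies. Each is annotated as the mature product of its own miRNA gene.

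The 10 libraries differed in depth, and the deposited values are RPM with no counts. The RPM of 1 read, taken as the most common value above 0 in a library, gave totals of 2511895 to 10217485 reads in PANDORA-seq and 1934330 to 16766908 in traditional-seq. Hence 1 read was worth 0.0979 to 0.398 RPM in PANDORA-seq and 0.0596 to 0.517 RPM in traditional-seq. Between 231 and 242 RNAs reached 1 RPM in a PANDORA-seq library, against 327 to 383 in a traditional-seq library. RPM is relative to all reads of a library and is not divided by the length of the parent RNA, so a level here is a share of reads, and fewer copies of an RNA cannot be told apart from more reads of the others. In whole liver, fewer cells of a type and less RNA per cell cannot be told apart either.

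The methods read different classes of RNA from the same mice. miRNAs made up 67.3% ± 2.72 (SD, n = 5) of the reads assigned to listed RNAs in traditional-seq and 3.49% ± 1.67 in PANDORA-seq. rRNA fragments from the nuclear genome rose from 19.4% ± 2.05 to 64.4% ± 7.17, a 3.32-fold larger share, and cytosolic tsRNAs rose from 7.21% ± 0.786 to 25.5% ± 7.35, a 3.53-fold larger share. The miRNA share in mice 1 to 5 was 4.99%, 2.11%, 5.58%, 2.73% and 2.04% in PANDORA-seq and 69.1%, 63%, 69.5%, 68.8% and 66.3% in traditional-seq. No library of either method came near the range of the other. The cytosolic tsRNA share in the same mice was 22.4%, 15.6%, 27.5%, 35.7% and 26.2% in PANDORA-seq and 6.72%, 8.13%, 7.10%, 6.24% and 7.87% in traditional-seq. Mouse 2 had the lowest tsRNA share in PANDORA-seq and the highest in traditional-seq. Smaller classes moved as well: mitochondrial rRNA fragments rose from 0.134% ± 0.0263 to 0.346% ± 0.203 and Y RNA fragments from 0.00632% ± 0.00152 to 0.0176% ± 0.00438. Reads assigned to none of the listed RNAs rose from 5.12% ± 0.608 to 21.0% ± 0.759 of all reads. For these 6 shares the libraries did not overlap, and the two-sided exact permutation test over libraries gave p = 0.00794, the smallest it allows here (Benjamini-Hochberg p = 0.0106 over 8 shares). The piRNA share rose from 4.10% ± 0.256 to 5.08% ± 0.471 with overlapping libraries (exact permutation p = 0.0238, adjusted 0.0272), but as a share of all reads its adjusted p was 0.571. The mitochondrial tsRNA share was 1.79% ± 0.40 in traditional-seq and 1.16% ± 0.458 in PANDORA-seq (exact permutation p = 0.0635, adjusted 0.0635). As a share of all reads the mitochondrial tsRNAs passed the same test, with an adjusted p of 0.0181, and they also passed without PANDORA-seq mouse 2 (0.0238) or traditional-seq mouse 1 (0.0317). A sign-flip test within the 5 mice, which treats the mouse as a replicate block, cannot go below p = 0.0625, and each of the 7 shares that passed without the block gave exactly that value.

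**Figure D1:**
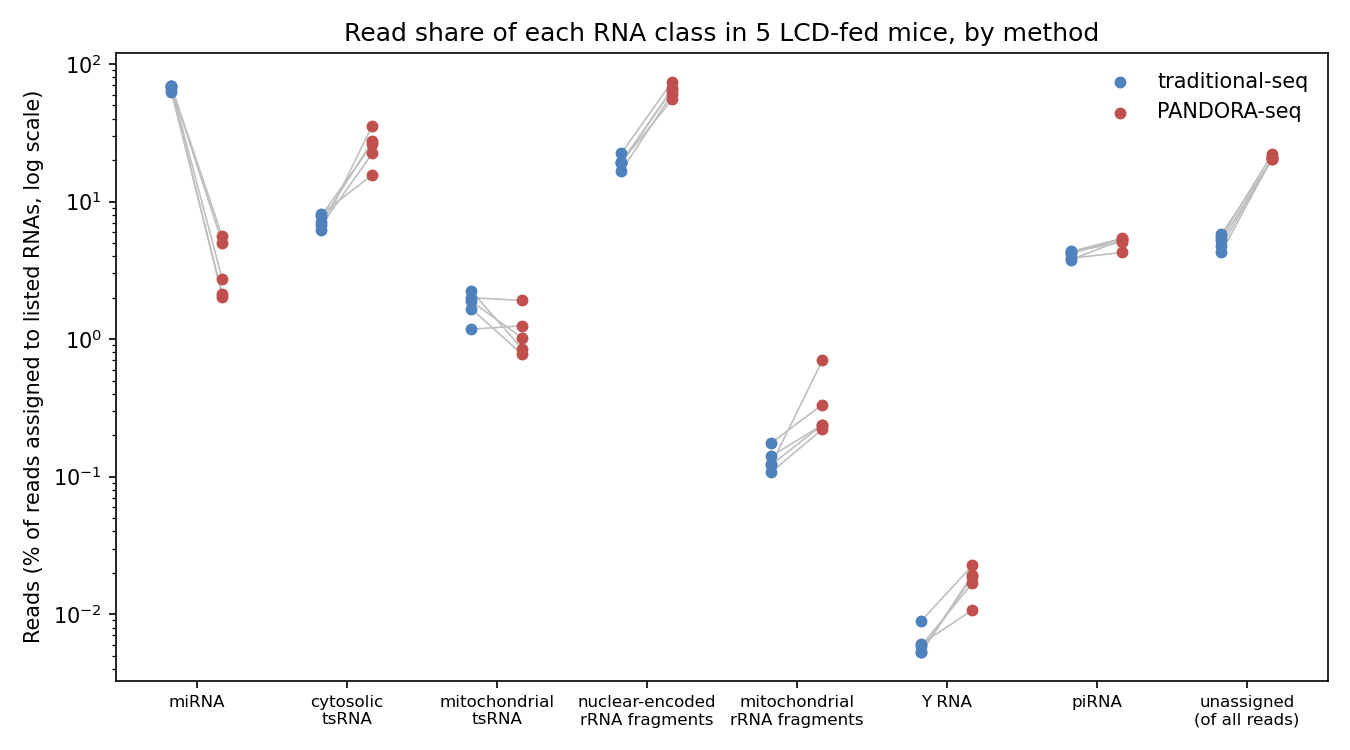
Read share of each RNA class in percent (log axis), with 1 point per library, blue for traditional-seq and red for PANDORA-seq, and a grey line joining the libraries of a mouse; unassigned reads are in percent of all reads. The miRNA points fall from 63 to 69.5% to between 2.04 and 5.58%, while the rRNA and cytosolic tsRNA points rise in all 5 mice.

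A few RNAs held most reads of each class, and the leading RNA often differed by method. Among cytosolic tsRNAs, Glu-CTC led every PANDORA-seq library with 51.7 to 72.2% of the class. In traditional-seq Gly-GCC led in mice 1, 2 and 5 with 38.3 to 44.8%, and Glu-CTC led in mice 3 and 4 with 48.1 and 49.4%. Traditional-seq read 90% of its cytosolic tsRNAs from 5 or 6 families, and PANDORA-seq from 7 to 13 (mean 5.4 against 10.2 families, two-sided exact permutation p = 0.00794, which a sign-flip test within mice could not reach). By the 50% mark the order was the opposite, 2 families in every traditional-seq library and 1 in every PANDORA-seq library. The reads of miRNAs were about as concentrated in both methods: 90% came from 8 to 24 entries in PANDORA-seq and from 13 to 21 in traditional-seq (means 16.2 and 16.6, exact permutation p = 0.968). miR-122 led every library but PANDORA-seq mouse 2, where miR-148a took 56.0% of miRNA reads and miR-122 took 15.3%. Among mitochondrial tsRNAs, Ser-GCT led all 5 traditional-seq libraries with 65.3 to 83.8% of the class. In PANDORA-seq it led in mice 1 and 3, and Glu-TTC led in mice 2, 4 and 5 with 32.1 to 43.1%.

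Single RNAs were compared on log2(RPM + 1), on which 21.8% of the 325 tested RNAs were higher in PANDORA-seq and 70.5% were lower. Of the 51 cytosolic tsRNA families, 43 were higher, 3 were lower and 5 did not pass the test, with a median difference of 2.42 against -2.63 over all 325 RNAs. All but 8 families were thus higher, and all 51 passed the filter on low values. One of the higher families, Sup-TTA, was under 1 RPM in every traditional-seq library. It passed the filter through PANDORA-seq alone and had to be higher. All 5 Ser, all 5 Leu, all 5 Arg, all 3 Thr, all 3 Pro and all 3 Val families were higher, as were most families of the class. The Gly, Ala, Lys and Sup families were split. Of 4 Gly families 1 was higher and 2 were lower, and of 3 Ala families 1 was lower and none was higher. In each of Lys and Sup, 1 of 2 families was higher. The 3 Pro families moved almost alike, by 3.08, 3.07 and 3.05 for Pro-AGG, Pro-CGG and Pro-TGG, and whether they share reads was not tested.

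The largest difference was that of tsRNA-Ser-GCT, a fragment family of the serine tRNA that reads AGC and AGU codons. Its level in mice 1 to 5 was 929, 567, 1382.3, 1945.6 and 1841.9 RPM in PANDORA-seq, and 11.5, 8.35, 17.2, 13.5 and 17.1 RPM in traditional-seq. Every PANDORA-seq library lay far above every traditional-seq library, and the log2 difference was 6.43 ± 0.37 (SE, n = 5 per method, adjusted p = 1.01e-10). tsRNA-Arg-ACG followed, from a tRNA whose anticodon is read after deamination to inosine. It stood at 960, 575, 1716.9, 1833.9 and 1283.5 RPM in PANDORA-seq and at 26.9, 36.6, 15.2, 14.6 and 24.1 RPM in traditional-seq, in the same order of mice. Mice 3 and 4 were highest in PANDORA-seq and lowest in traditional-seq, so the difference ran from 3.94 to 6.88 between mice (mean 5.67 ± 0.374, adjusted p = 3.38e-10). tsRNA-Trp-CCA, from the single tRNA family for tryptophan, had 2331.7, 3726.7, 2345.1, 1076.2 and 3072.1 RPM in PANDORA-seq against 44.7 to 55.9 RPM in traditional-seq. Its mean was 49.1-fold higher, and the traditional-seq values hardly varied (SD 4.71 RPM). The elongator tRNA family Met-CAT rose 27.2-fold, from 79.0 ± 21.2 to 2150.9 ± 752 RPM. Asp-GTC, whose tRNA carries queuosine in the anticodon, rose 24.1-fold, from 432 ± 140 to 10400.9 ± 5478.2 RPM, and moved from rank 75 to rank 8 of all listed RNAs. Thr-CGT rose from a range of 1.09 to 3.84 RPM to 95.0 to 270 RPM. Sup-TTA, a family of suppressor-type tRNA annotations, was at 0.0104 to 0.124 RPM in traditional-seq, near or under the value of 1 read, and at 4.28 to 17.3 RPM in PANDORA-seq. SeC-TCA, the selenocysteine tRNA, rose from 28.8 RPM to 436 RPM on average.

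Several abundant families differed less. tsRNA-Glu-CTC was at 114428, 64241.9, 153162, 203610 and 125094 RPM in PANDORA-seq and at 20461.2, 25873.2, 32548.8, 29501.9 and 26234.0 RPM in traditional-seq. The lowest PANDORA-seq library, that of mouse 2, was still above the highest traditional-seq library, and the mean ratio was 4.91 (log2 difference 2.21 ± 0.273, adjusted p = 7.26e-07). The other cytosolic tsRNAs together rose 1.66-fold, from 41488.2 ± 8753.3 to 68926.1 ± 8814.7 RPM. His-GTG, a well-known source of 5′ fragments, rose 5.49-fold, with mice 1 and 3 highest at 14578.8 and 14712.6 RPM. Glu-TTC (mean 5656.1 and 8572.5 RPM) and Tyr-GTA (466 and 708 RPM) passed the test narrowly, with adjusted p of 0.0368 and 0.0451. Both have overlapping libraries, and leaving out single libraries ended the call of Glu-TTC in 6 of 10 cases and that of Tyr-GTA in 7 of 10.

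Only 3 cytosolic families were lower in PANDORA-seq as RPM, and for each the sign of the difference turned with TMM scaling. Gly-GCC, which led traditional-seq in mice 1, 2 and 5, was at 10274.4, 11356.8, 7267.0, 12356.8 and 10150.0 RPM in PANDORA-seq and at 28352.1, 29539.4, 18350.9, 16684.7 and 28851.4 RPM in traditional-seq. The groups did not overlap, and the log2 difference was -1.22 ± 0.249 (adjusted p = 1.82e-04) as RPM, but 1.06 after TMM scaling. Gly-CCC differed by -1.25 ± 0.313 (adjusted p = 0.0012) and Ala-CGC by -1.24 ± 0.383 (adjusted p = 0.00566), both lower in 5 of 5 mice as RPM. After TMM scaling both stood at 1.04, with an adjusted p of 0.0174 for Gly-CCC and of 0.0739, which did not pass, for Ala-CGC. The 5 families that did not pass were Ala-AGC, Ala-TGC, Gly-TCC, Lys-CTT and Sup-TCA. Sup-TCA had an adjusted p of 0.051, and of 0.0246 with the mouse as a block.

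**Figure D2:**
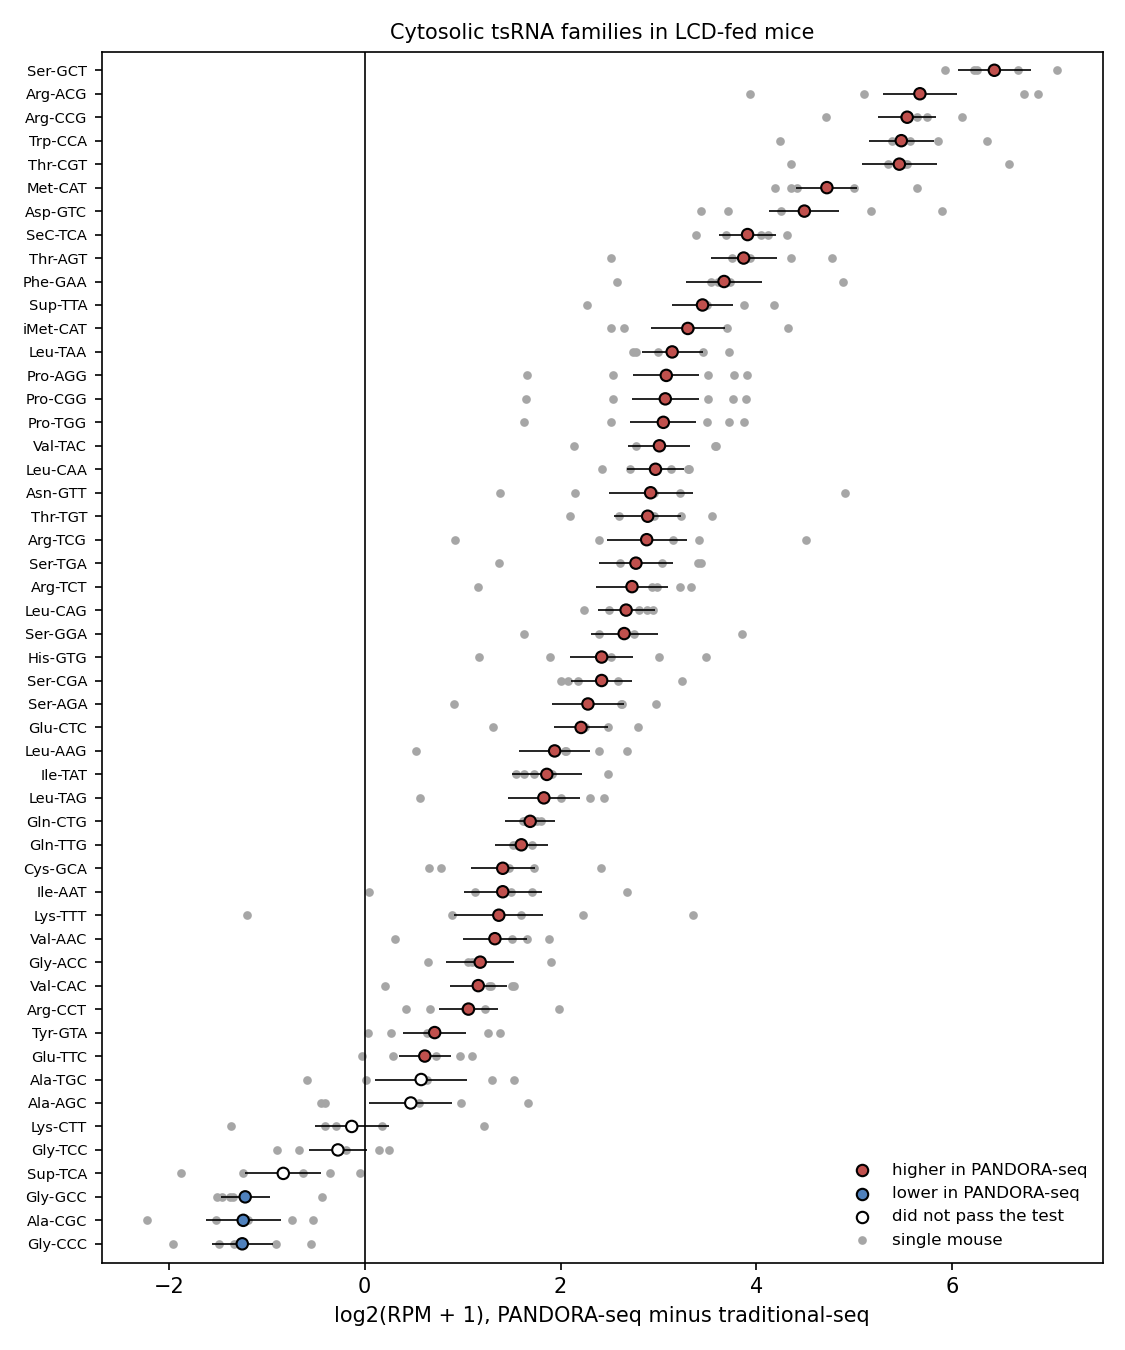
Difference between methods for the 51 cytosolic tsRNA families on log2(RPM + 1), with grey points for the 5 mice, and large points with bars for the fitted difference ± SE, red where higher, blue where lower and white where the test was not passed. The families run from Gly-CCC at -1.25 to Ser-GCT at 6.43, and 43 red points lie right of 0.

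Families were grouped by modifications known in mammalian tRNAs, and the counts are to be read against the 43 of all 51 cytosolic families that were higher. The 9 Ser, Thr and Arg families with 3-methylcytidine in the anticodon loop, a base that AlkB demethylates, were all higher, with a median of 2.77 and a range of 1.06 (Arg-CCT) to 6.43 (Ser-GCT). The 6 Leu and Pro families with 1-methylguanosine next to the anticodon, also an AlkB substrate, were all higher, with a median of 2.86. The 4 families with queuosine, which AlkB leaves in place, were all higher too, with a median of 2.67. So were the 11 Ser, Leu and selenocysteine families with a long variable arm, at a median of 2.67. Among the 9 families best known for cleaved fragments, 6 were higher and 2 were lower, with a median of 1.16. The median over the whole class was 2.42, so the modification lists stood close to it and only the last list stood below it.

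Within the cytosolic tsRNA class, each family was also compared as a share of the reads of its class. This was done for the 130 RNAs of all classes with at least 10 RPM on average in each method, of which 32.3% took a larger and 21.5% a smaller share in PANDORA-seq. Of 43 cytosolic families, 22 took a larger share, 7 a smaller share and 14 did not pass. Glu-CTC rose from 39.7% ± 8.30 to 64% ± 8.18 of the class (log2 difference 0.70 ± 0.166, adjusted p = 0.0015), and Gly-GCC fell from 35.4% ± 7.64 to 5.52% ± 2.20 (-2.74 ± 0.259, adjusted p = 5.41e-08). Lys-CTT, at 908 and 1006.5 RPM in PANDORA-seq and traditional-seq, did not pass as RPM (adjusted p = 0.739) but took a smaller share of its class (log2 difference -1.64, adjusted p = 9.09e-04). All 7 of the m3C families and all 9 of the long variable arm families that could be compared here had either a larger share (6 and 7) or no call. The same held for the 6 families with 1-methylguanosine (4 with a larger share) and the 4 with queuosine (3 with a larger share). Of the 9 families best known for cleaved fragments, 3 took a larger and 4 a smaller share. The lists share members, such as Ser families in both the m3C and the long variable arm lists. The call for His-GTG ended in 5 of 10 cases when single libraries were left out.

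Mitochondrial tRNAs are made from polycistronic transcripts of both strands of the mitochondrial genome, and most carry a methylated A or G at position 9, made by the same protein complex that frees their 5′ ends. All 22 families passed the filter; as RPM 5 were higher, 8 were lower and 9 did not pass, with a median of -0.35. This balance depended on the scaling: TMM scaling gave 15 higher and 1 lower. Scaling by miRNA reads, which moves all RNAs of PANDORA-seq up, gave 21 higher and none lower. The whole tRNAs of the 4 families with the largest differences are shown, as annotated in GENCODE M21 on the same genome build, with the ninth base in capitals. The genes of Ser-TGA and Glu-TTC lie on the minus strand and those of Ser-GCT and Met-CAT on the plus strand.

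mt-Ser-TGA (chrM:6870-6938): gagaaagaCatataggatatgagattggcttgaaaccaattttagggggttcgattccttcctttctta
mt-Ser-GCT (chrM:11613-11671): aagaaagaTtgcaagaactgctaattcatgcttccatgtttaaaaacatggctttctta
mt-Glu-TTC (chrM:14071-14139): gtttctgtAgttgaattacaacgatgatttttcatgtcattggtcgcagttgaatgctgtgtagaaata
mt-Met-CAT (chrM:3845-3913): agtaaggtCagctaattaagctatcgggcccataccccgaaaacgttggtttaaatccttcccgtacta

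Both serine families were lower in PANDORA-seq as RPM. mt-Ser-GCT, the tRNA that lacks a D arm, was at 3088.1, 2134.2, 2010.6, 1813.6 and 1697.8 RPM in PANDORA-seq and at 7277.5, 15197.5, 17870.9, 12874.3 and 13055.6 RPM in traditional-seq. Mouse 1 was highest in PANDORA-seq and lowest in traditional-seq, and the groups did not overlap (log2 difference -2.60 ± 0.281, adjusted p = 1.37e-07, but -0.31 after TMM scaling with adjusted p = 0.397). mt-Ser-TGA fell from 292 to 368 RPM to 32.3 to 55.3 RPM, a log2 difference of -3.01 ± 0.281, which stayed below 0 after TMM scaling and turned to 1.61 when scaled by miRNA reads. mt-Glu-TTC moved the other way, with 2598.8, 6571.8, 1559.1, 1957.2 and 3134.8 RPM in PANDORA-seq and 474, 432, 297, 274 and 534 RPM in traditional-seq. It was 7.87-fold higher on average, and mouse 2 stood highest. mt-Met-CAT rose from 15.5 to 61.2 RPM to 254 to 416 RPM (log2 difference 3.68 ± 0.382, adjusted p = 8.31e-08). Without mt-Ser-GCT, the mitochondrial tsRNAs together were 1.88-fold higher in PANDORA-seq (7037.7 ± 3551.8 against 3747.9 ± 630 RPM). mt-His-GTG (1400.3 and 858 RPM) and mt-Asp-GTC (6.82 and 3.66 RPM) had adjusted p of 0.06 and 0.106, and of 0.0486 and 0.0286 with the mouse as a block. mt-Val-TAC, at 136 to 1462.4 RPM in PANDORA-seq and 330 to 449 RPM in traditional-seq, did not pass (adjusted p = 0.821).

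The ninth base was A in 13 families, G in 6, C in 2 and T in 1. Of the 13 with A, 4 were higher and 2 lower as RPM, with a median of 0.31; of the 6 with G, none was higher and 4 were lower (Leu-TAA, Ile-GAT, Gln-TTG and Cys-GCA), with a median of -1.29 and a range of -2.13 to 0.65. These are counts over few families that include both extremes under C, mt-Met-CAT and mt-Ser-TGA. Among the 8 families with genes on the minus strand 1 was higher and 4 were lower (median -1.17), and among the 14 on the plus strand 4 were higher and 4 lower (median 0.09). Within the class, 7 of 18 families took a larger share in PANDORA-seq, led by mt-Met-CAT and mt-Glu-TTC, and 5 a smaller share. mt-Ser-GCT went from 76.8% ± 7.46 to 25.2% ± 7.37 of the class and mt-Glu-TTC from 2.53% ± 1.14 to 32.8% ± 8.48.

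**Figure D3:**
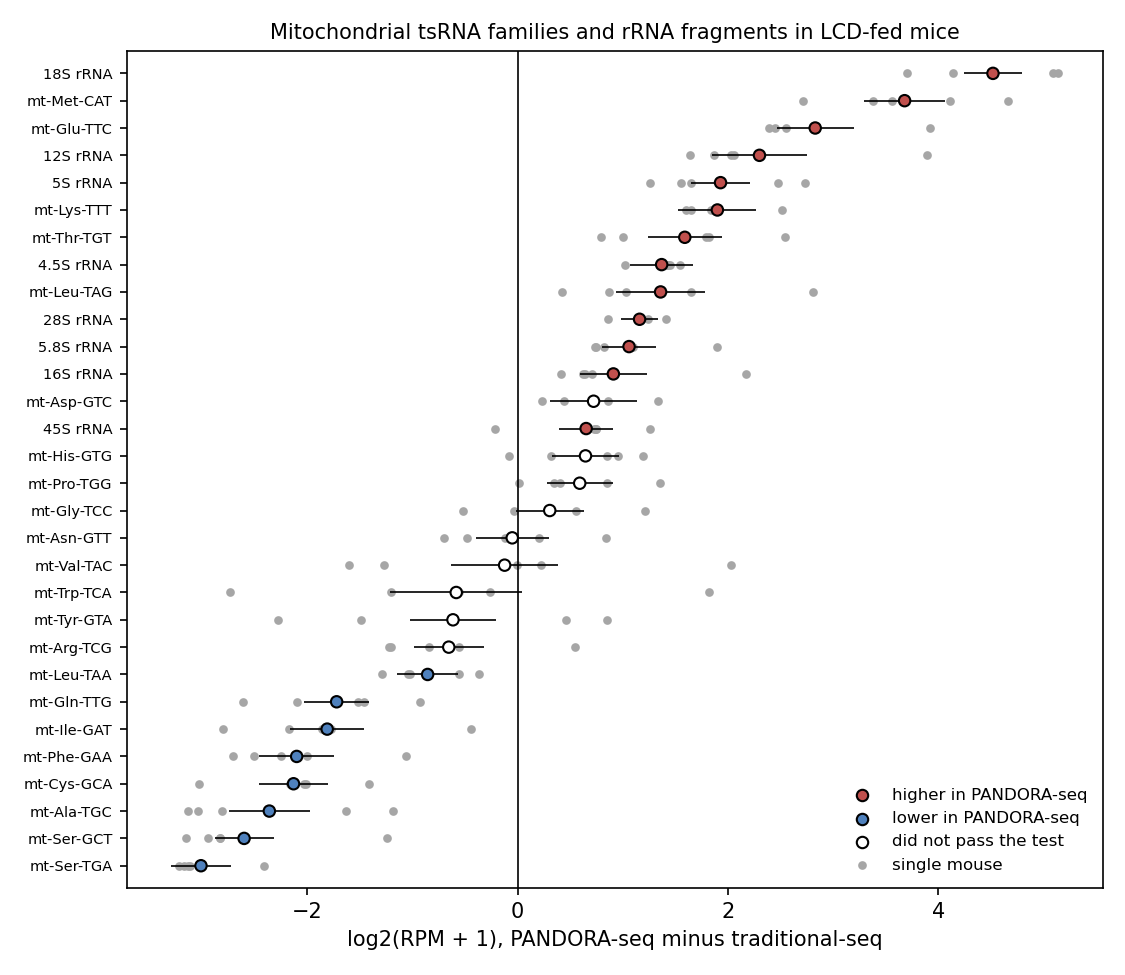
Difference between methods for the 22 mitochondrial tsRNA families and the 8 rRNA entries on log2(RPM + 1), with grey points for the 5 mice and large points with bars for the fitted difference ± SE, coloured by the test. 18S rRNA at 4.52 is the highest and mt-Ser-TGA at -3.01 the lowest, and the mitochondrial families lie on both sides of 0.

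All 8 rRNA entries were higher in PANDORA-seq. Fragments of 18S rRNA, the RNA of the small ribosomal subunit, changed most, with 111444, 137532, 54047.7, 57563.8 and 92252.2 RPM in PANDORA-seq and 3266.8, 3887.5, 4154.8, 3264.1 and 4033.2 RPM in traditional-seq. The mean was 24.3-fold higher and every PANDORA-seq library was above every traditional-seq library (log2 difference 4.52 ± 0.272, adjusted p = 1.31e-10). Fragments of 28S rRNA, from the large subunit, rose 2.24-fold, from 159525 ± 20010.6 to 357239 ± 45613.3 RPM, and became the most abundant listed RNA. 5S rRNA rose 3.94-fold, with 22060.9 to 59744.7 RPM in PANDORA-seq and 8413.8 to 15394.4 RPM in traditional-seq, and 5.8S rRNA rose from 6612.7 to 14045.9 RPM on average. 4.5S rRNA rose from 61.2 to 162 RPM. 45S rRNA, the precursor entry, went from 3817.9 to 6139.2 RPM (log2 difference 0.65 ± 0.258, adjusted p = 0.0244), and its call ended in 5 of 10 cases when single libraries were left out. Of the mitochondrial rRNAs, 12S rRNA was 6.21-fold and 16S rRNA 2.05-fold higher on average. Both owed part of this to PANDORA-seq mouse 1, which had 534 RPM of 12S rRNA against 84.1 to 156 RPM in the other mice and 5032.5 RPM of 16S rRNA against 1665.6 to 2501.8 RPM. Within the rRNA class, 18S rRNA took a larger share (log2 difference 3.05 ± 0.264, adjusted p = 1.44e-08). 28S rRNA went from 86.5% to 70.1% of the nuclear-encoded rRNA reads, a smaller share whose call ended in 6 of 10 cases when single libraries were left out.

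Y RNAs are short noncoding RNAs bound by the Ro60 protein. RNY3 rose from 23.4 to 29.2 RPM to 44.6 to 119 RPM (log2 difference 1.36 ± 0.321, adjusted p = 7.10e-04), and RNY1 went from 21.7 to 55.5 RPM to 33.4 to 101 RPM with overlapping libraries (adjusted p = 0.0302, a call that ended in 5 of 10 cases when single libraries were left out). The pooled piRNA entry was at 33945.3, 42789.7, 40152.2, 41615.9 and 42069.3 RPM in PANDORA-seq and at 36479.3, 39705.1, 41154.9, 36306.3 and 41035.9 RPM in traditional-seq. These values lay in the same range, and the difference of 0.04 ± 0.19 did not pass as RPM (adjusted p = 0.84), while after TMM scaling the entry was higher by 2.33. The deposited table does not say which reads the entry holds.

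miRNA entries went down in PANDORA-seq as RPM. Of 241 tested, 218 were lower, 13 were higher and 10 did not pass, with a median of -3.42, while after scaling by the summed miRNA reads 57 were lower and 52 higher. The filter let in RNAs that only traditional-seq read: 70 entries were at 1 RPM or more in all 5 traditional-seq libraries and under 1 RPM in all 5 PANDORA-seq libraries, so they had to be lower. Among the 61 miRNA entries with a mean of at least 10 RPM in both methods, 60 were lower and 1 was higher as RPM, with a median of -5.11. A mean of 10 RPM was reached by 165 miRNA entries in traditional-seq and by 66 in PANDORA-seq.

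miR-122, the hepatocyte miRNA, was at 21638.6, 2580.6, 26469.9, 12031.6 and 6062.6 RPM in PANDORA-seq and at 323759, 180426, 385545, 378039 and 229369 RPM in traditional-seq. Mice 2 and 5 were the lowest in both methods, the mean was 21.8-fold lower in PANDORA-seq, and the rank went from 1 to 7 (log2 difference -4.82 ± 0.49, adjusted p = 6.63e-08). miR-148a, also abundant in hepatocytes, was 15.5-fold lower, miR-192 was 41.1-fold lower and miR-21a was 80.0-fold lower. miR-21a was at 295 to 666 RPM in PANDORA-seq and 16884.3 to 66936.3 RPM in traditional-seq, with mice 2 and 5 highest there. The largest decreases were those of miR-126a, the miRNA of endothelial cells, and miR-26b. miR-126a was at 38.2, 24.7, 16.9, 17.8 and 17.4 RPM against 3400.7, 6486.4, 2468.8, 1944.7 and 5771.4 RPM, a 174-fold lower mean in PANDORA-seq (log2 difference -7.30 ± 0.376, adjusted p = 5.17e-11). miR-26b was at 1.04 to 7.96 RPM against 389 to 594 RPM (-7.28 ± 0.393). miR-1839, at 0.335 to 1.98 RPM against 177 to 342 RPM, and miR-26a-1 (-6.64) and miR-101a (-6.35) also lost much. Of 2 miRNAs named for cell type, miR-802 (hepatocytes) was listed at 0 in 4 of 5 PANDORA-seq libraries and at 11.9 to 16.9 RPM in traditional-seq, and miR-451a (erythroid cells) was listed at 0 in all 5 PANDORA-seq libraries and at 1.13 to 8.27 RPM in traditional-seq.

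The let-7 family, whose members share the seed printed above and are known for holding back cell growth genes, was lower throughout. All 14 entries fell as RPM, by a median of 5.11 on the log2 scale. So did 218 of all 241 tested miRNA entries, and the 61 at a mean of at least 10 RPM in both methods had the same median. The 14 entries include copies of the same miRNA, such as let-7f-1 and let-7f-2, with almost the same values. The extent differed between members with almost the same sequence. let-7g was at 261, 56.7, 108, 107 and 56.7 RPM in PANDORA-seq against 10791.5 to 12457.2 RPM in traditional-seq (log2 difference -6.88 ± 0.365). let-7b was at 125, 25.0, 232, 164 and 83.8 RPM against 1550.7 to 2900.2 RPM (-4.46 ± 0.469). In traditional-seq let-7g was thus above let-7b in every mouse, and in PANDORA-seq it was below let-7b in mice 3, 4 and 5. Within the miRNA class let-7g took a smaller share in PANDORA-seq (-2.21 ± 0.32, adjusted p = 1.15e-05), and let-7b and let-7a-1 did not pass (0.21 and -0.44). The other 11 members had no call or could not be compared there. The difference between let-7g and let-7b was not tested on its own.

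**Figure D4:**
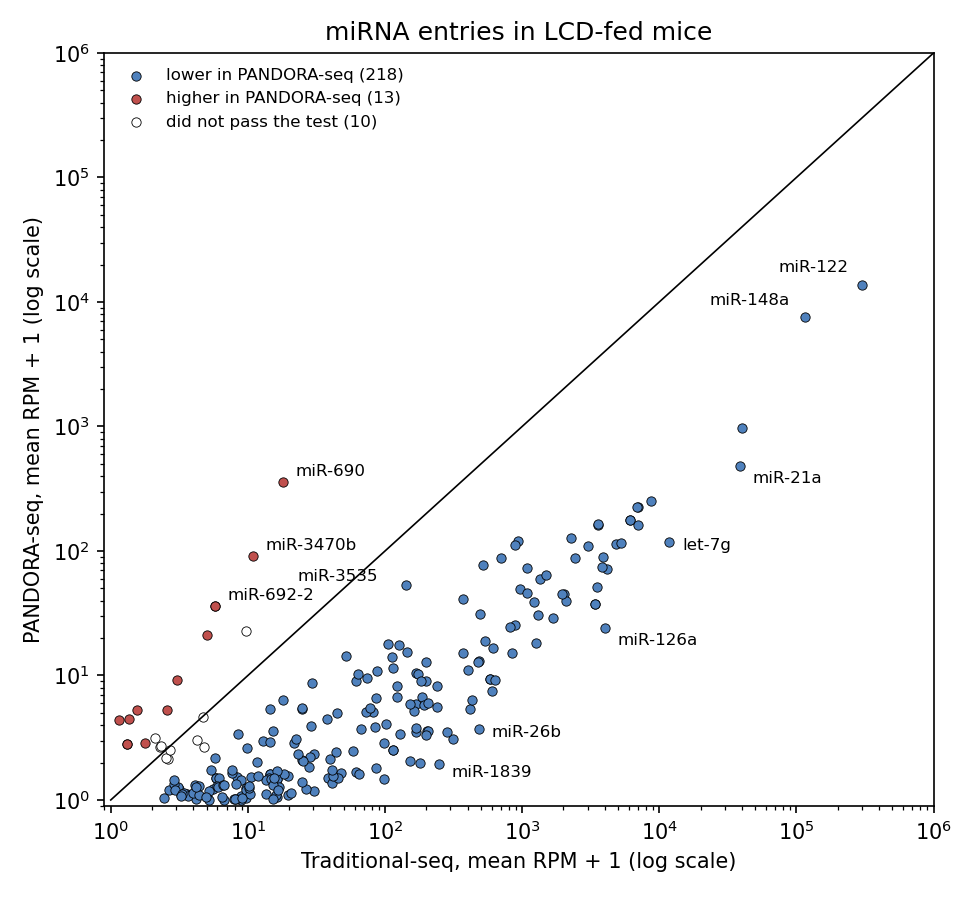
Mean level of the 241 tested miRNA entries in PANDORA-seq (y) against traditional-seq (x) in RPM + 1 on log axes, with the diagonal where both methods agree, coloured by the test. Nearly all points lie under the diagonal, and the 13 red entries above it are low in traditional-seq, with miR-690 highest at 355 against 16.9 RPM.

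Of the entries listed as miRNAs, 13 were higher in PANDORA-seq: miR-690, miR-3470a, miR-3470b, the 3 copies of miR-692, both copies of miR-3084, miR-682, miR-5119, miR-3965, miR-5098 and miR-466q. Of these, 5 were at 1 RPM or more in every PANDORA-seq library and under 1 RPM in every traditional-seq library, so they passed the filter through PANDORA-seq alone and had to be higher. Among the 139 miRNA entries at 1 RPM or more in at least 3 libraries of each method, 7 were higher and 124 were lower. miR-690 was at 308, 809, 214, 69.6 and 373 RPM in PANDORA-seq and at 26.5, 25.4, 11.4, 8.68 and 12.7 RPM in traditional-seq, with no overlap (log2 difference 4.04 ± 0.527, adjusted p = 1.36e-06). It was among the 10 most abundant miRNA entries of PANDORA-seq, at rank 46 of all RNAs against 209. miR-3470b was at 37.8, 170, 52.2, 49.7 and 140 RPM against 4.56 to 13.9 RPM. The copies miR-692-2 and miR-692-3 had the same values, 10.8, 86.0, 21.1, 15.4 and 41.4 RPM against 4.22, 3.87, 1.73, 1.71 and 12.4 RPM. Mouse 2 was the highest of the PANDORA-seq libraries in all of these. miR-682 (1.96 to 5.59 RPM against at most 0.261 RPM) and miR-5119 (2.53 to 5.57 against 0.197 to 0.901 RPM) were low in both methods.

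The mature sequences of these entries were searched in the GENCODE M21 transcripts, on the sense strand and without mismatch. A transcript that held the whole hairpin was left out as the miRNA's own or its host. RefSeq had a mature sequence for 209 of the 241 tested entries, and 12 of the 13 that were higher. Of these 12, 8 had a mature sequence in a gene other than a miRNA gene, and 6 of them in a protein-coding gene. The 3 copies of miR-692 are among these 6. Of the 187 entries with a sequence that were lower, 27 matched another gene and 2 a protein-coding gene. Of the 10 entries that did not pass, 5 matched another gene and 3 a protein-coding gene. Over all 209 entries with a sequence these counts were 40 and 11. The sequence of miR-692 lies in Ftl1, which encodes the light chain of ferritin, and in 5 annotated pseudogenes. That of miR-682 lies in Rpl37a, which encodes a protein of the large ribosomal subunit, and in 5 pseudogenes. That of miR-3470b lies in 546 other genes, 173 of them protein-coding, and that of miR-690 in 3 other genes, among them the protein-coding Fundc2. miR-3084 shares sequence with Snora19, a small nucleolar RNA. No match was found in the rRNAs and mitochondrial tRNAs that GENCODE annotates, but cytosolic tRNAs and the 45S precursor were not searched. This search was chosen after the values were seen, the matches are descriptions of the sequences, copies of an entry share reads, and the origin of the reads was not tested.

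As shares of miRNA reads, 12 of 61 entries were larger in PANDORA-seq, 14 were smaller and 35 did not pass. miR-122 held 46.4% ± 12.6 of miRNA reads in traditional-seq and 44.8% ± 18.4 in PANDORA-seq (log2 difference -0.16 ± 0.304, adjusted p = 0.695). miR-148a held 18.4% ± 5.56 and 29.9% ± 15.4 (adjusted p = 0.0753, and 0.00778 with the mouse as a block). miR-690 rose most, from 0.00268% to 1.75% of miRNA reads (8.70 ± 0.583). miR-3535 (3.30), miR-671 (2.67), miR-222 (2.04), miR-151 (1.75), miR-744 (1.61) and miR-92a-1 (1.60) followed, all with a larger share of miRNA reads although each was lower as RPM. miR-126a (-2.64), let-7g (-2.21) and miR-26a-1 (-1.97) took the smallest shares compared with traditional-seq. miR-192 (-0.92) and miR-21a (-1.47) also took smaller shares, with calls that ended in 2 of 10 and 1 of 10 cases when single libraries were left out. Of these 61 entries, 50 had mature sequences in RefSeq, which is 82.0%. The share of G and C bases, averaged over the annotated arms, was 45.5 to 68.1% (median 54.2%) in the 8 of these 50 with a larger share and 38.6 to 53.5% (median 46.5%) in the 13 with a smaller share. Across all 50 entries it went with the log2 difference at Pearson's r = 0.33 and Spearman's rho = 0.40, and at 0.55 and 0.43 without miR-690. These are descriptions over entries that share libraries, and some of which are copies of the same miRNA. The deposited values are per entry, so the base share need not be that of the arm that was read. For let-7a-2 only the 3′ arm was annotated, at 52.4%. let-7a-1, with both arms annotated, stood at 36.4%, although the 2 entries differed between methods almost alike (-0.444 and -0.44).

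**Figure D5:**
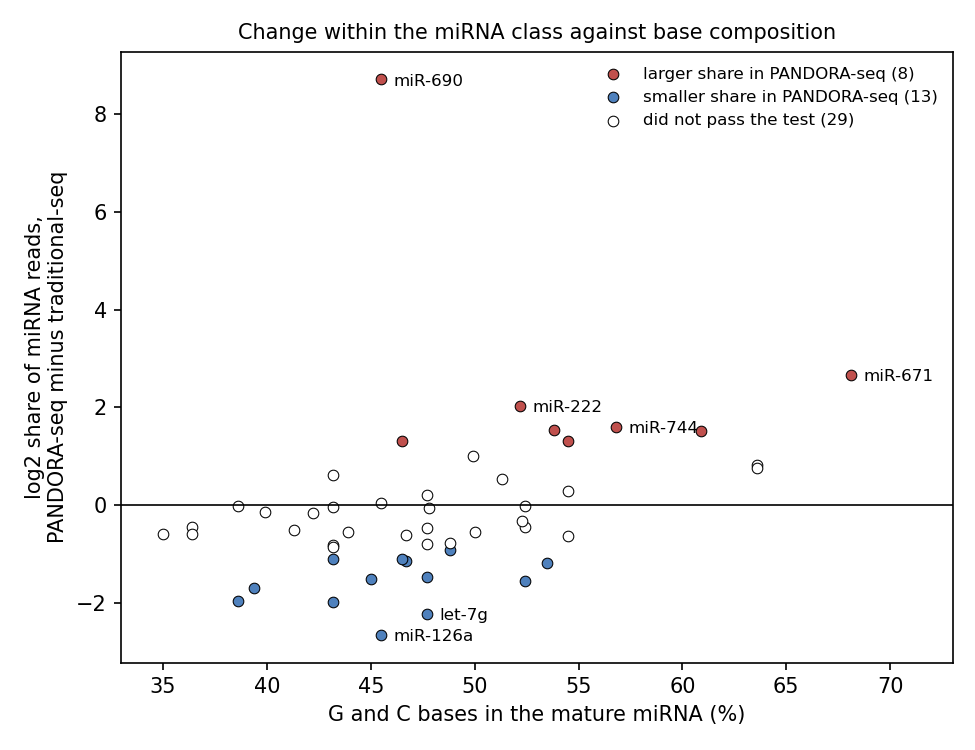
Difference between methods in the log2 share of miRNA reads (y) against the percent of G and C bases (x), with 1 point for each of 50 entries, coloured by the test. The percent is averaged over the annotated mature arms of an entry, which need not be the arm that was read. The 13 blue entries lie at 38.6 to 53.5% G and C, and miR-690 at 8.70 stands apart from the rest.

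Lists of miRNAs marking cell types moved in the same direction as the class. As RPM 218 of all 241 tested miRNA entries were lower in PANDORA-seq, and so were all tested members of these lists: 7 of 7 for hepatocytes, 1 of 1 for endothelium, 5 of 5 for immune cells, 6 of 6 for stellate cells and fibroblasts, 9 of 9 for biliary epithelium, 3 of 3 for erythroid cells and 2 of 2 for muscle. The hepatocyte list includes miR-101b, which was not among the markers first laid down for these cells. The summed hepatocyte list was at 11113.5 to 38306.3 RPM in PANDORA-seq and 375244 to 516037 RPM in traditional-seq, with miR-122 present in every library of the labelled tissue. The muscle list summed to at most 3.33 and 75.4 RPM. Part of the list counts was set by the filter. Members under 1 RPM in every PANDORA-seq library passed it through traditional-seq alone and had to be lower. Among them were miR-802, miR-451a, miR-429, miR-96, miR-200c and miR-142a. A mean of 10 RPM in both methods was reached by 5 of the 7 hepatocyte members, miR-101b included. It was reached by 1 member each for endothelium, for stellate cells and fibroblasts, and for biliary epithelium. No tested immune, erythroid or muscle member reached it. miR-320 and miR-484, whose precursors are made without Drosha, were lower as well (-4.54 and -3.09).

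Among RNAs well read by both methods, values spread more over the PANDORA-seq libraries than over the traditional-seq libraries of the same 5 mice. Where the mean reached 10 RPM in each method (133 RNAs), the median SD of log2(RPM + 1) over 5 mice was 0.605 in PANDORA-seq and 0.405 in traditional-seq, and 102 of the 133 RNAs had the larger SD in PANDORA-seq. By class these were 48 of 61 miRNA entries, 29 of 43 cytosolic and 14 of 18 mitochondrial tsRNA families and all 8 rRNA entries. Over all 241 tested miRNA entries, many of them near 0 in PANDORA-seq, the count was 111. The largest SD in PANDORA-seq was that of mt-Trp-TCA (1.77), and the largest in traditional-seq among these RNAs was that of let-7j (0.987). These values are descriptions, and depth differed between the libraries as given above. With 1 library per mouse and method, spread between mice and spread between library preparations cannot be told apart.

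The same comparison was run in 4 other mice fed a high cholesterol diet (HCD), with 4 libraries per method. Of 256 RNAs tested there, 21.1% were higher and 53.9% lower in PANDORA-seq. Of the 71 RNAs higher in LCD-fed mice, 65 could be tested in HCD-fed mice, and 47 were higher there too. Of the 229 that were lower, 167 could be tested, 137 were lower there too and 1 was higher. Among mitochondrial tsRNAs, 3 of 5 higher and 1 of 7 lower families were called again. Among cytosolic tsRNAs, 34 of 42 higher families and none of the 3 lower families were called again. Of the 13 miRNA entries that were higher in LCD-fed mice, 8 could be tested and 3 were called again. Of the lower miRNA entries, 157 could be tested and 136 were called again. Of the 8 rRNA entries that were higher, 8 could be tested and 6 were called again. The size of the log2 difference was alike for some RNAs only. Ser-GCT had 6.43 in both sets of mice, and Arg-ACG had 5.67 with LCD and 5.82 with HCD. Met-CAT stood at 4.72 with LCD and 2.16 with HCD, Glu-CTC at 2.21 and 4.26, and His-GTG at 2.42 and 5.81. For 18S rRNA the single mice ranged from 3.7 to 5.14 with LCD and from 0.894 to 2.66 with HCD. Ala-CGC went the other way as RPM: it was at 114 to 568 RPM in PANDORA-seq and 532 to 996 RPM in traditional-seq in LCD-fed mice, and in HCD-fed mice at 570, 369, 592 and 624 RPM against 145, 248, 67.1 and 127 RPM. A difference between the diets was not tested.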

How the data were processed

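Small RNA libraries of 5 LCD-fed mice, 1 per mouse and method, were compared from a table in which the authors deposited RPM (reads of an RNA scaled to a fixed total of library reads) per RNA. Per the labels and methods, the authors aligned reads with SPORTS, allowing 1 mismatch, against mm10 and small RNA databases and summed fragments by parent RNA. Of the deposited RPM values below 3 RPM, 67.6 to 80.7% were whole multiples of 1 read (within 0.02 of a read), so whole reads were not recovered and no count test was run. Blank entries (11673 over all columns) were set to 0. RNAs at 1 RPM or more in 5 of 10 libraries were tested on log2(RPM + 1) with limma 3.58.1 (R 4.3.3, mean-variance trend), with Benjamini-Hochberg adjustment over all 325 and a threshold of 0.05. The test was tried on simulated data. Fits within a class used log2(RPM + 1) minus log2 of the class sum. All p-values named adjusted in the text are from limma unless an exact permutation test is named. Fold changes on this scale are understated for low RNAs. TMM factors were computed by own code on the RPM (trim of 30% on folds and 5% on levels).

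Mouse numbers pair the libraries, since both came from the RNA of the same mouse; deviations from the method means correlated within mice at r = 0.116 to 0.402, although for mice 1, 3 and 4 a library of another mouse correlated more (0.209, 0.452 and 0.281). The main fit had no block. Identical libraries were not found. Members, lists and tests were chosen with earlier results of these data known. Named miRNAs were the 10 most abundant per method, the 10 largest changes in each direction at 100 RPM or more, all that were higher, the 8 largest changes in each direction within the class, and list members. The search of transcripts other than rRNA and tRNA was added after the values were seen. Alternatives were other pseudocounts, filters and scalings, the mouse as a block, shares of all reads and leaving out each library. Replicates are separate mice, and the depth behind each value is the inferred number of reads per library.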

Additional observations from a re-analysis of the deposited data

Results flagged for a closer look

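Of 154 groups of 5 libraries looked at, 13 held a library that stood far from the other 4, and chance gives about 1 in 20 such groups. PANDORA-seq mouse 1 had the highest mitochondrial rRNA share, 0.7% against 0.334% in the next library, with 534 RPM of 12S rRNA (next 156) and 5032.5 RPM of 16S rRNA (next 2501.8). The same library was highest for let-7g, at 261 RPM (next 108), and for miR-26b, at 7.96 RPM (next 1.9). Other PANDORA-seq values that stood apart were 511 RPM of SeC-TCA (next 430), 1462.4 RPM of mt-Val-TAC (next 454) and 0.0979 RPM of miR-802, where the other 4 libraries were listed at 0. In traditional-seq these were a Y RNA share of 0.00897% (next 0.00609%), 24.2 RPM of Sup-TCA (next 9.34), 60.5 RPM of mt-Thr-TGT (next 35.5), 15394.4 RPM of 5S rRNA (next 10062.9) and 12.4 RPM of miR-692-2 (next 4.22).

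As RPM, Ala-CGC moved in opposite directions in the mice of each diet. PANDORA-seq minus traditional-seq on log2(RPM + 1) was -1.24 on average in LCD-fed mice, from -2.22 to -0.527, and 1.99 in HCD-fed mice, from 0.571 to 3.12. In LCD-fed mice the difference turned to 1.04 with TMM and to 3.41 with scaling by miRNA reads, the same sign as in HCD-fed mice as RPM. The difference between the diets was not tested.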

How the results depend on the processing

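With the mouse as a replicate block, the exact sign-flip permutation test left the differences in class share as they were (-63.9 points for miRNA, 18.3 for cytosolic tsRNA, 45 for nuclear rRNA, 0.212 for mitochondrial rRNA, 0.0113 for Y RNA, 0.975 for piRNA and 15.9 for unassigned reads), each at an adjusted p of 0.0714, and that of 4.8 tsRNA families at p = 0.0625, the smallest this test allows. Beside the values given in the report, the block changed the call within a class for Tyr-GTA (-0.80), mt-Val-TAC (0.81) and 12S rRNA (0.83), and no other call of a named RNA. As a share of all reads, mitochondrial tsRNAs differed by -0.782 and piRNA by 0.118 points. The mitochondrial tsRNA difference ran from -0.818 to -0.518 points with single libraries left out. At 50% of reads the difference in tsRNA families was -1.

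Scaling moved the counts most. The share of higher RNAs among those called was 23.7% as RPM, 35.3% with TMM (median of all RNAs -1.07) and 70.3% when scaled by miRNA reads (median 0.37). Scaling by miRNA reads gave 135 higher and 57 lower, and all 57 lower RNAs were miRNAs. This scaling sets the summed miRNA reads equal in all libraries. The miRNA share was far smaller in PANDORA-seq, so the scaling moves every RNA of that method up. Calls of higher RNAs in other classes follow largely from it and are no separate result. Mitochondrial tsRNAs higher were 15 with TMM and 21 with miRNA scaling, those lower 1 and 0, and lower cytosolic tsRNAs were 0 with both. A filter of 10 RPM left 143 lower miRNAs. A mean of 30 RPM left 27 RNAs with a larger share of their class, among them 6 miRNAs and 14 cytosolic tsRNAs, and 2 mitochondrial tsRNAs with a smaller share. Leaving out single libraries gave 62 to 73 higher and 158 to 231 lower RNAs, the fewest where a traditional-seq library was left out and the filter of 5 libraries dropped RNAs read by that method alone, and 39 to 44 larger and 23 to 34 smaller shares within classes.

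Named RNAs whose difference turned from negative to positive with TMM and with miRNA scaling were Gly-GCC (1.06 and 3.44), Gly-CCC (1.04 and 3.42), Ala-CGC (1.04 and 3.41), Lys-CTT (2.15 and 4.53), Sup-TCA (1.14 and 3.08), mt-Val-TAC (2.15 and 4.52), miR-671 (0.19 and 2.46) and miR-3535 (0.89 and 3.23). With miRNA scaling alone these were mt-Ser-GCT (2.07), mt-Ser-TGA (1.61), mt-Ala-TGC (2.20), miR-148a (0.62), let-7b (0.19), miR-222 (1.90), miR-151 (1.73), miR-92a-1 (1.58) and miR-744 (1.47). Without a filter, Glu-TTC, Tyr-GTA, 45S rRNA and RNY1 lost their calls, with adjusted p of 0.0936, 0.105, 0.064 and 0.0738 from limma. The cause of these changes was not tested. RNAs near the value of 1 read limit what can be compared in the shallower libraries.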
